A study of Mus musculus with 4 samples.

Results

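Granular layer keratinocytes are the last living cells of the epidermis before the dead cornified layer. They were taken here from single-cell RNA profiles of the amputated mouse digit, in which each transcript molecule is counted once by its unique molecular identifier (UMI). A cell was a member when it held at least 1 UMI of 5 or more of 7 genes of the granular layer, namely Slurp1, Wfdc21, Wfdc12, Hrnr, Hal, Lypd5 and Cnfn, and when the keratins Krt1 and Krt10 together made up at least 0.5% of its UMIs. Of 93602 barcodes that passed the limits on genes, UMIs and mitochondrial UMIs, 3325 were members. These 9 genes chose the cells, so their levels are given as a description with no test, and so are all other levels of the same cells.

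In stratified epidermis, keratinocytes leave the basal layer, which carries Krt5 and Krt14, and switch to Krt1 and Krt10 in the spinous layer. In the granular layer they make the precursors of the cornified envelope (loricrin, involucrin, small proline-rich and late cornified envelope proteins), store profilaggrin in keratohyalin granules and lipids in lamellar bodies, and close tight junctions. They then break down their nucleus and organelles and become corneocytes, held together by corneodesmosomes until kallikrein proteases cut these. Thick epidermis and the nail bear on the terminal phalanx, so nail and hair follicle keratins can also be met in such tissue.

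All 4 libraries came from the tip of hindlimb digits 2 to 4 of female C57BL/6 mice (C57BL/6J in the methods) aged 6 to 8 weeks, after the end of the terminal phalanx (P3) had been cut off, a level that regenerates. The methods name digits 2 and 4 as amputated, and digits 2 to 4 were later cut off at the proximal second phalanx only to collect the tissue. In the SAR131675 library the mice ate chow with SAR131675, an inhibitor of the lymphatic growth factor receptor VEGFR3, at 30 mg/kg, and in the control diet library the same chow without it. For this pair the sources differ on the day of sampling after amputation and on the start of the diet, so neither is given here. In the LNR library the lymph nodes that drain the limb (popliteal and inguinal) had been removed, and the sham library came from the opposite limb of the same mice, listed as untreated, so that this pair shares its animals and any effect on the whole body. Each library pooled the digits of 10 mice and each group was 1 library with a batch label of its own, so group, batch and library cannot be told apart, no library is a replicate of another and no comparison between libraries has a test. Both pairs were digested whole with dispase and collagenase, which limits the cells to those that survive as single living cells; the share of granular cells in the intact skin was not measured.

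The 4 libraries held between 21669 and 38464 barcodes and between 168507188 and 585284877 UMIs. Median depth per kept barcode was 11316 and 10712 UMIs in the SAR131675 and control diet libraries against 5725 and 5851 in the LNR and sham libraries, so levels are set side by side mainly within each pair. Kept barcode sequences found in both libraries of a pair numbered 210 for SAR131675 and control diet, 1 of them a member in both, and 101 for LNR and sham, none of them a member in both (0). Every list of values that follows gives the libraries in the order SAR131675, control diet, LNR and sham, and a level is the number of UMIs per 1000000 UMIs (CPM) summed over the named cells.

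Granular cells made up 3.33% of the kept SAR131675 cells (969 of 29076, exact 95% binomial interval 3.13 to 3.55). The share was 5.08% with control diet (1220 of 24030, interval 4.80 to 5.36), 1.85% with LNR (366 of 19827, 1.66 to 2.04) and 3.73% in sham (770 of 20669, 3.47 to 3.99). These intervals, like all that follow, cover counting error only and not the spread between mice. For gene levels and their ratios they take each UMI as independent, so they leave out the spread between cells as well. Granular cells were thus less frequent in the SAR131675 library than in its control and less frequent in the LNR library than in sham. The log2 ratio of shares was -0.61 (interval -0.73 to -0.48) for SAR131675 over control diet and -1.01 (-1.20 to -0.83) for LNR over sham.

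The second of these differences changed with the composition of the sham members. A barcode was called mixed when it held UMIs of 5 or more of 22 genes that define leukocytes, mesenchyme, endothelium, melanocytes or Schwann cells, a limit set after the data were seen. Mixed barcodes were 25 of the SAR131675 members (2.58%), 55 with control diet (4.51%), 39 with LNR (10.7%) and 370 in sham (48.1%), whereas among the spinous cells of sham they were 9.55%. The sham members formed a second peak: 21.9% held none of the 22 genes, 3.12% held 4 and 11.2% held 8. Without mixed barcodes, 400 sham members (2.04% of kept cells) faced 327 LNR members (1.71%), and the log2 ratio was -0.25 (-0.47 to -0.04). For SAR131675 (944 members, 3.29%) and control diet (1165 members, 4.91%) it was -0.58 without them.

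Barcodes with at least 3000 UMIs were thinned to 3000, which removes the difference in depth, and shallower ones were dropped. This left 26437, 20973, 15353 and 16032 barcodes, of which 2.03%, 3.34%, 1.37% and 1.89% were granular. The log2 ratio was then -0.72 for SAR131675 over control diet. For LNR over sham it was -0.47 (-0.73 to -0.21), and -0.26 (-0.55 to 0.03) when mixed barcodes were also left out, an interval that includes 0. This ratio was near that without mixed barcodes alone (-0.25, -0.47 to -0.04), and its interval was wider, with 185 LNR and 227 sham members left. In that setting a lower granular share with LNR was not separable from counting error.

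**Figure D1:**
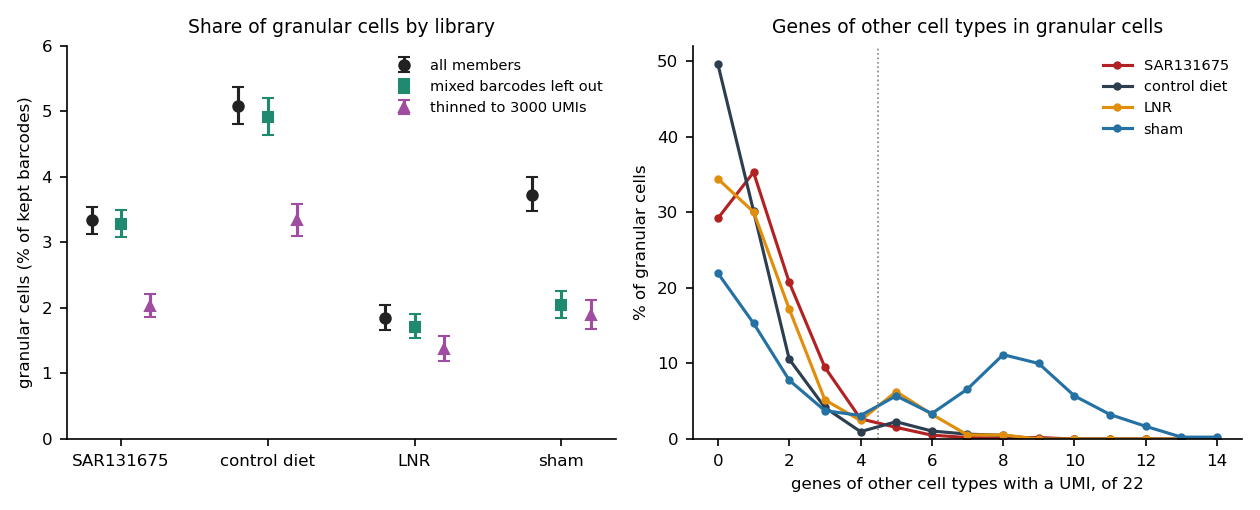
Left, share of kept cells that were granular keratinocytes in each library (percent, with exact 95% binomial intervals) for all members, with mixed barcodes left out and after thinning to 3000 UMIs. Thinned shares are over barcodes with at least 3000 UMIs. Right, percent of granular members by the number of other-type genes (of 22) with a UMI, with the mixed limit dotted; the sham line has a second peak at 8 genes, and the SAR131675 share stays below control diet in each form.

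The mixed barcodes of sham carried less of the granular genes looked at and more genes of other types. Slurp1 stood at 680 CPM in mixed sham members and 2641 in the rest, and Lor, the envelope protein loricrin, at 1163 and 4794. The basal keratin Krt5 stood at 1483 and 233, and the collagen gene Col1a1 at 1024 and 31.3. In the other 3 libraries the level of Lor in mixed and other members was closer, at 6455 and 6857, 5183 and 6214, and 4634 and 4748. Sham levels of granular cells include mixed barcodes unless a value without them is given beside, and the part that multiplets (2 cells in 1 droplet), free RNA or undigested clumps had in them was not tested.

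The members were deep cells. Their median UMI count was 22280, 21981, 17603.5 and 16221, against 14289.5, 13591, 10272.5 and 10011 in spinous cells, which were defined by the same keratin limit and at most 2 of the 7 genes. A rule that asks for UMIs of many genes is met more easily by deep cells, which is why the thinned shares are given above. The median mitochondrial share was 1.41%, 1.19%, 2.08% and 2.79% in members and 2.09%, 1.91%, 3.25% and 3.36% in spinous cells. Members thus had the lower mitochondrial share in all 4 libraries.

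The 7 genes of the rule were scarce in spinous cells and abundant in members, as the rule requires. Slurp1, which encodes a secreted protein of the Ly6 family that is lost in the palmoplantar keratoderma Mal de Meleda, stood at 1738, 1976, 2655 and 1715 CPM (sham without mixed barcodes 2641). In spinous cells Slurp1 stood at 13.9, 14.3, 27.4 and 29.6, and in transitional cells, with 3 or 4 of the 7 genes, at 108, 157, 306 and 314. After thinning, a Slurp1 UMI was found in 73.6%, 76.1%, 79.5% and 74.6% of granular cells. Mesenchymal cells, which should lack the gene, showed one in 2.64%, 1.86%, 3.89% and 3.87%, and spinous cells in 3.43%, 2.98%, 5.35% and 5.72%, so that the spinous share lay close to the background share. Without thinning the shares were 94.6%, 93.5%, 97.8% and 98.3% of granular cells and 6.70%, 4.37%, 4.63% and 4.94% of mesenchymal cells, whose median depth was 10069, 9310, 3902 and 3789 UMIs.

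Wfdc21, a small secreted protein with a whey acidic protein fold, stood at 3521, 3340, 5424 and 4074 CPM in members, and without mixed barcodes sham (6247) stood above LNR (5250). Hrnr, the filaggrin-like keratohyalin protein hornerin, stood at 5673, 6420, 3449 and 2262 (sham without mixed barcodes 3667). Hal, the enzyme that turns histidine released from filaggrin into urocanic acid, stood at 842, 938, 650 and 428 (636 in sham without mixed barcodes). Wfdc12 stood at 1181, 1538, 1492 and 907 (1431 in sham without mixed barcodes). Lypd5 stood at 886, 1062, 328 and 220 (339), and Cnfn, the envelope protein cornifelin, at 750, 873, 736 and 490 (756). Hrnr, Hal and Lypd5 were higher in the SAR131675 and control diet pair, and Wfdc21 in the LNR and sham pair. The control diet and sham libraries alone differed in the same way. Without mixed barcodes Hrnr stood at 6477 and 3667 in them, and Wfdc21 at 3330 and 6247. The pairs also differ in their libraries and in the version of the counting software (8.0.1 and 6.1.2), which cannot be told apart.

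At the edge of the rule, members with exactly 5 of the 7 genes numbered 246, 279, 76 and 156, and cells with 4 genes and enough keratin numbered 282, 330, 126 and 172. The levels that follow leave out mixed barcodes, which left 239 and 264 members with 5 genes and 279 and 322 cells with 4 in the SAR131675 and control diet libraries. Slurp1 stood at 345 CPM in the 5-gene members of SAR131675 and at 411 in those of control diet, against 156 and 196 in the 4-gene cells just outside. Lor stood at 417 and 392 against 117 and 179. All 7 genes were present in 497, 640, 196 and 362 members.

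The keratins followed the order of the layers. The basal keratin Krt14 went from 7779, 8256, 7468 and 7708 CPM in basal-type cells to 1715, 1509, 1850 and 1880 in spinous cells and 200, 163, 397 and 1281 in granular cells (424 in sham without mixed barcodes). Krt2, the keratin of the upper spinous and granular layers, stood at 6872, 8582, 5891 and 5865 in spinous cells and at 16112, 19676, 17011 and 12171 in granular cells. Sbsn, which encodes the secreted protein suprabasin, went from 1110, 1229, 1334 and 1359 to 7772, 7706, 6924 and 5041. Lor and Flg differed from Krt2 and Sbsn in the shape of this course. Their spinous levels lay near those of mesenchymal cells (Lor 34.6, 39.3, 12.6 and 12.4 CPM there), and their granular levels, given below, were far above both.

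**Figure D2:**
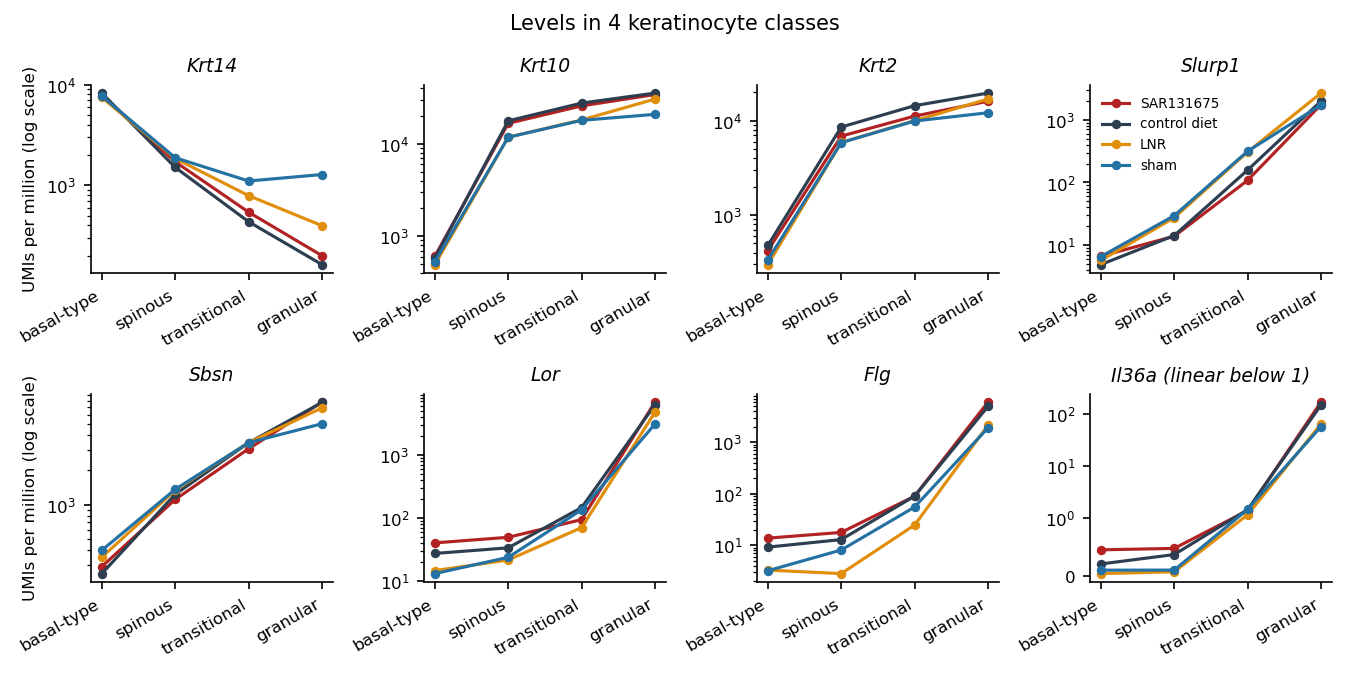
Level of 8 genes (CPM, log scale, linear below 1 for Il36a) in basal-type, spinous, transitional and granular cells, 1 line per library. Krt14 declines, though not from transitional to granular cells in sham, Krt10, Krt2 and Sbsn climb by steps, and Lor, Flg and Il36a stay low until the granular class, with Slurp1 intermediate in transitional cells.

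Over all genes with at least 100 UMIs in granular and spinous cells, 829 of 14929 (5.55%) were at least 2-fold higher in granular cells in all 4 libraries and 380 (2.55%) at least 2-fold lower. Such genes are called higher and lower below; because the rule chose the cells by the same UMIs, nothing is read from these shares. Without mixed barcodes 913 of 14393 (6.34%) were higher and 2508 (17.4%) lower, the lower set being limited otherwise by the sham library. The median log2 ratio over all genes was -0.60, -0.65, -0.49 and -0.08. A gene with a ratio of 0 on this scale therefore lay above most others.

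Precursors and cross-linkers of the cornified envelope made up the list with the highest median. Of 42 measured genes of 53, 35 were higher and 0 lower, and the median log2 ratio was 4.82 against -0.47 for all genes. Lor stood at 6846, 6189, 4734 and 3080 CPM in granular cells (4794 in sham without mixed barcodes) and at 49.7, 33.9, 21.7 and 24.0 in spinous cells, a mean log2 ratio of 7.35. Flg, which encodes profilaggrin, stood at 6052, 4981, 2146 and 1912 (2981 in sham without mixed barcodes) against 17.7, 12.9, 2.80 and 8.07, a mean of 8.62. In both genes the granular level was over 100 times the spinous level within every library.

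The start regions of a few of these genes are shown for their sequence. The next lines give the 150 bases before the RefSeq start of Flg (chr3:93273396-93273545, plus strand), Lor (chr3:92083143-92083292, minus strand), Hrnr (chr3:93319599-93319748, plus strand), Sprr1b (chr3:92438780-92438929, minus strand) and, as a keratin already on in the spinous layer, Krt10 (chr11:99389365-99389514, minus strand). They are read 5′ to 3′ on the gene's strand in build GRCm38.p6, an older build than that of the counts, and capitals mark TATAAA on the gene's strand and TGANTCA, the letters of an AP-1 site, which reads the same on both strands.
Flg: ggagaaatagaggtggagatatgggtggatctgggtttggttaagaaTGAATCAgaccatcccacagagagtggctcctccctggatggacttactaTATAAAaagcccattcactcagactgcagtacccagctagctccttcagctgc
Lor: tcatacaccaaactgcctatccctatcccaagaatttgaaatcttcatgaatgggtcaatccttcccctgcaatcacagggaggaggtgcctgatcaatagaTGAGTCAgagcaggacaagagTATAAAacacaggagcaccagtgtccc
Hrnr: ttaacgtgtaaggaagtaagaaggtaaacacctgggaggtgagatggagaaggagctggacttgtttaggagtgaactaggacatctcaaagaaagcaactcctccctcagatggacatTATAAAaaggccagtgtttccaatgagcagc
Sprr1b: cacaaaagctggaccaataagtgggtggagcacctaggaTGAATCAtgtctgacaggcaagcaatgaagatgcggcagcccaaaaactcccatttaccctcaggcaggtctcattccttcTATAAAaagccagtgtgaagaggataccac
Krt10: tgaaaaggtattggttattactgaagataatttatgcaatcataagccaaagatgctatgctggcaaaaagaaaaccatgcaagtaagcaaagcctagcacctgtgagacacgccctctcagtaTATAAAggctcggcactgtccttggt

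TATAAA began 53 bases before the start of Flg, 27 before that of Lor, 31 before Hrnr, 30 before Sprr1b and 26 before Krt10. TGANTCA began 103 bases before the start of Flg, 48 before Lor and 111 before Sprr1b, and these letters are not in the windows of Hrnr and Krt10. Over 27025 mouse promoters of the same length, 5.26% held TATAAA, 4.27% held TGANTCA and 0.381% held both. Of the 7 rule genes 5 had an entry, 1 of them with TATAAA and 0 with TGANTCA. These genes were picked for display, and a match of letters is no evidence of binding. Only 583 of the 829 higher genes (70.3%) had an entry, too few for a comparison of the whole set, which is void for that reason.

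Other envelope genes spanned a wide range of contrast. Flg2, the filaggrin relative, stood at 188, 144, 131 and 67.9 CPM (mean log2 ratio 7.46) and Ivl, involucrin, at 162, 144, 107 and 73.5 against 11.4, 12.3, 6.38 and 8.82 in spinous cells (3.62). Tgm1, the membrane transglutaminase that cross-links the envelope, stood at 121, 138, 93.0 and 56.4 (3.77). Sprr1b, a small proline-rich precursor, stood at 1088, 951, 514 and 366 against 109, 99.9, 56.3 and 47.1 (3.18). Not every gene of the list was called: Krtdap and Dmkn, secreted proteins of differentiating keratinocytes, had mean log2 ratios of 0.67 and 0.90 and were already abundant in spinous cells, and the epidermal transglutaminase Tgm3 had -0.83, at 160, 161, 157 and 141 against 294, 332, 238 and 246. Sprr2b (8.13), like other Sprr2 and Lce genes, has near-identical copies among which reads could be split, so its level is uncertain.

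Keratins and desmosomes changed less. Among 15 keratins, 3 were higher and 0 lower (median log2 ratio -0.13). Krt2 (1.25) was joined by Krt78 at 131, 130, 141 and 89.7 CPM against 1.56, 2.36, 2.07 and 2.28 in spinous cells (5.88), and by Krt23 (5.62), whose granular levels ran from 123 with SAR131675 down to 39.0 in sham. Krt5 and Krt14 had mean log2 ratios of -2.15 and -2.27 and were called lower only with mixed barcodes left out, where Krt14 had -2.79. Of 14 measured desmosome genes 2 were higher: Cdsn, corneodesmosin, at 232, 294, 371 and 274 against 9.05, 12.4, 10.3 and 20.7 (4.53), and the desmosomal cadherin Dsc1 at 1451, 1822, 649 and 413 (2.42). Dsg3, a cadherin of the lower layers, was the 1 lower, at 10.2, 8.02, 5.92 and 27.9 against 102, 104, 58.5 and 70.9 (-2.91). The shared desmosome genes Perp (0.48) and Dsp (0.31) were not called.

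Of 30 measured genes that make and transport barrier lipids, 17 were higher and 0 lower (median log2 ratio 1.47), and 13 were not called. Alox12b, the lipoxygenase that oxidises the linoleate of acylceramides, stood at 188, 237, 195 and 114 CPM against 2.91, 4.51, 3.15 and 3.73 in spinous cells (5.65). Its partner Aloxe3 stood at 90.6, 115, 77.8 and 55.4 (4.01). Elovl4, which makes very long chain fatty acids for ceramides, stood at 1905, 1764, 1269 and 911 against 514, 555, 307 and 322 (1.78), and Abca12, the lamellar body lipid transporter, at 344, 329, 130 and 94.8 (1.68). Sphingomyelinase genes Smpd3 (5.32) and Smpd1 (4.05) and the dehydrogenase gene Sdr9c7 (3.82) were also higher. Fabp5 (0.48), a fatty acid binding protein, Them5 (0.39) and Elovl3 (-0.10) were not called.

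Filaggrin processing enzymes and proteases were mostly higher. Of 5 measured processing genes 4 were higher, with a median log2 ratio of 2.61: Asprv1, the retroviral-like aspartic protease that cuts profilaggrin, stood at 1595, 1622, 950 and 744 CPM against 26.8, 32.3, 22.9 and 31.5 (5.37), and Casp14, a caspase of the cornifying layer, at 323, 333, 187 and 133 against 46.0, 49.9, 27.9 and 29.5 (2.61). Blmh, which breaks filaggrin down to amino acids, had 2.06, while Padi1, a deiminase, reached only 6.1, 6.24, 1.82 and 1.10. Among 14 measured proteases 9 were higher and 0 lower (median 1.73), including the corneodesmosome-cutting kallikreins Klk7 at 1453, 1320, 795 and 501 against 91.9, 66.7, 30.5 and 44.6 (4.12), Klk5 at 708, 796, 431 and 280 (3.78) and Klk8 at 785, 737, 762 and 565 (1.52). The lysosomal proteases Ctsd (0.77), Lgmn (-0.01) and Ctsc (-0.74) were not called.

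Inhibitors of these proteases were higher in the same cells, 9 of 17 measured with 0 lower (median 1.71). Spink5, the kallikrein inhibitor LEKTI that is lost in Netherton syndrome, stood at 3693, 3861, 2050 and 1444 CPM against 171, 178, 103 and 138 in spinous cells (4.14). Serpina12, the serpin vaspin, stood at 560, 649, 440 and 297 against 2.14, 2.03, 1.42 and 1.17 (8.14). Cst6, a cystatin that restrains legumain and cathepsins, had a mean log2 ratio of only 0.01, and sham, at 3307, was its highest library. Serpinb5 (0.62) and Cstb (0.70) were above the median of all genes but not called, and Serpinb6a had -1.37.

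Of 11 Ly6 family genes apart from the rule, 4 were higher. Slurp2, the neighbour of Slurp1 and likewise secreted, stood at 1054, 1190, 1665 and 1122 CPM against 105, 135, 212 and 198 (2.99). Ly6g6c stood at 1864, 1821, 2363 and 1605 (2.01), and Ly6m at 166, 202, 64.1 and 43.0 (7.20). Ly6d, an abundant surface protein of stratified epithelium, did not follow them, at 7062, 7170, 6768 and 5707 (-0.25), nor did Lypd3 (1.17), which missed 2-fold in at least 1 library. Ly6a had -1.91.

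Of 28 transcription factors, 5 passed 2-fold upward and 1 downward (median log2 ratio 0.18). The higher ones were Prdm1, the repressor Blimp1, at 45.6, 41.5, 22.3 and 17.0 CPM against 2.45, 2.54, 1.61 and 2.38 (3.71), Hopx, a homeodomain protein without DNA binding, at 565, 561, 375 and 259 (2.19), Pou3f1 (2.00), Ehf (1.92) and Cebpb at 980, 662, 493 and 419 (1.46). Klf4, the barrier regulator, stood at 1492, 1682, 1186 and 1038 (0.75) and was not called, nor was Rora (1.01). The lower one was Ovol2, a repressor of mesenchymal genes, at 0.916, 0.760, 0.608 and 1.49 (-2.57).

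Some junction and calcium genes passed the call. Of 18 junction genes 8 were higher (median 1.17), with the tight junction claudins Cldn23 at 107, 98, 79.2 and 50.4 CPM against 2.16, 2.81, 1.84 and 2.60 (5.11) and Cldn4 at 118, 119, 96.9 and 64.1 (3.95). The gap junction connexins Gjb2 (3.29) and Gjb5 (1.56) contrasted with Gja1, the most widespread connexin, which had -0.50, and Cldn8 had -0.98. Of 11 measured calcium genes 3 were higher, among them the calmodulin relatives Calm4 at 11120, 10898, 13301 and 8795 against 3191, 3374, 4533 and 4209 (1.53) and Calml3 at 1995, 2000, 1206 and 904 (1.74). The calcium pump Atp2a2 (0.46), the sensor Stim1 (-0.29) and the channel Trpv6 (-1.05) were not called.

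Alarmins and cytokines of the interleukin 1 family were among the genes with the steepest contrast. Of 20 measured genes of the list 7 were higher and 0 lower (median 1.28; 0.17 with mixed barcodes left out). Il36a stood at 170, 149, 64.4 and 57.5 CPM (96.3 in sham without mixed barcodes) against 0.481, 0.375, 0.0768 and 0.107 in spinous cells and 0.363, 0.549, 0.103 and 0.123 in mesenchymal cells. Its log2 ratio was 8.45 and 8.61 in the SAR131675 and control diet libraries. Il36rn, the antagonist of the same receptor, stood at 474, 402, 347 and 243 against 13.5, 9.97, 11.5 and 9.85 (5.00), and Il18 at 121, 106, 53.3 and 45.7 (5.48). Agonist and antagonist genes of this family were thus both high in the same class of cells.

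Defb1, a beta-defensin, stood at 147, 137, 102 and 81.9 CPM (1.74). The chemokine gene Ccl27a, which draws skin-homing T cells, stood at 1.83, 1.52, 6.84 and 25.5 against 15.4, 12.3, 46.8 and 35.1 in spinous cells (-2.32). Among 12 measured wound genes 2 were higher, and the higher example was Ereg, the growth factor epiregulin, at 107, 114, 37.7 and 31.0 against 1.52, 1.11, 0.691 and 1.32 (5.77). Hbegf (-0.09) and Stfa1 (-0.08) were not called.

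Cells in division and cells on the basement membrane marked the other end. None of 10 cell division genes was higher; 9 were lower with mixed barcodes left out and 0 with them, at medians of -2.81 and -2.32. Mki67 stood at 11.5, 14.2, 5.77 and 50.9 CPM in granular cells (13.1 in sham without mixed barcodes) against 76.2, 72.9, 67.2 and 83.6 in spinous cells. Basal adhesion genes behaved alike: all 9 were lower with mixed barcodes left out (median -2.72), 1 of them, Cd44, also with them, at 80.2, 52.3, 36.3 and 74.8 against 394, 370, 155 and 157 (-2.07). Col17a1, a hemidesmosome collagen, stood at 34.3, 31.4, 44.8 and 181 (51.7 in sham without mixed barcodes) against 462, 501, 361 and 354 (-2.93). For Mki67 and Col17a1 sham was the highest library when mixed barcodes were included.

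Nuclear breakdown genes were split. Dnase1l2, a DNase that clears nuclear DNA in keratinocytes, stood at 68.7, 72.1, 41.2 and 31.1 CPM against 1.95, 3.55, 1.31 and 1.99 (4.60), and the exonuclease gene Trex2 at 104, 87.5, 49.4 and 41.2 (4.30). The other 4 of 6 were not called, among them the lamins Lmna (-0.02) and Lmnb1 (-1.77) and Endou (0.28).

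The study concerns lymphatics and bone, and 14 of 15 genes of those signals could be measured in this class. None was higher and 1 was lower: Il34, a ligand of the macrophage receptor Csf1r, at 53.4, 52.4, 21.6 and 25.7 CPM against 188, 211, 58.5 and 59.4 in spinous cells (-1.62). Flt4, the gene of VEGFR3 that SAR131675 inhibits, stood at 0.305, 0.633, 0.456 and 1.02 in granular cells, and its ligand gene Vegfc at 0.153, 0.169, 0.456 and 1.33. Vegfd (-1.22) ranged over 2.73 to 5.57, Vegfa (0.09) over 7.44 to 12.3 and Csf1 (0.15) over 5.62 to 14.9. Tnfrsf11a, the RANK receptor, stood at 13.5, 13.5, 11.2 and 7.30 (0.15).

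**Figure D3:**
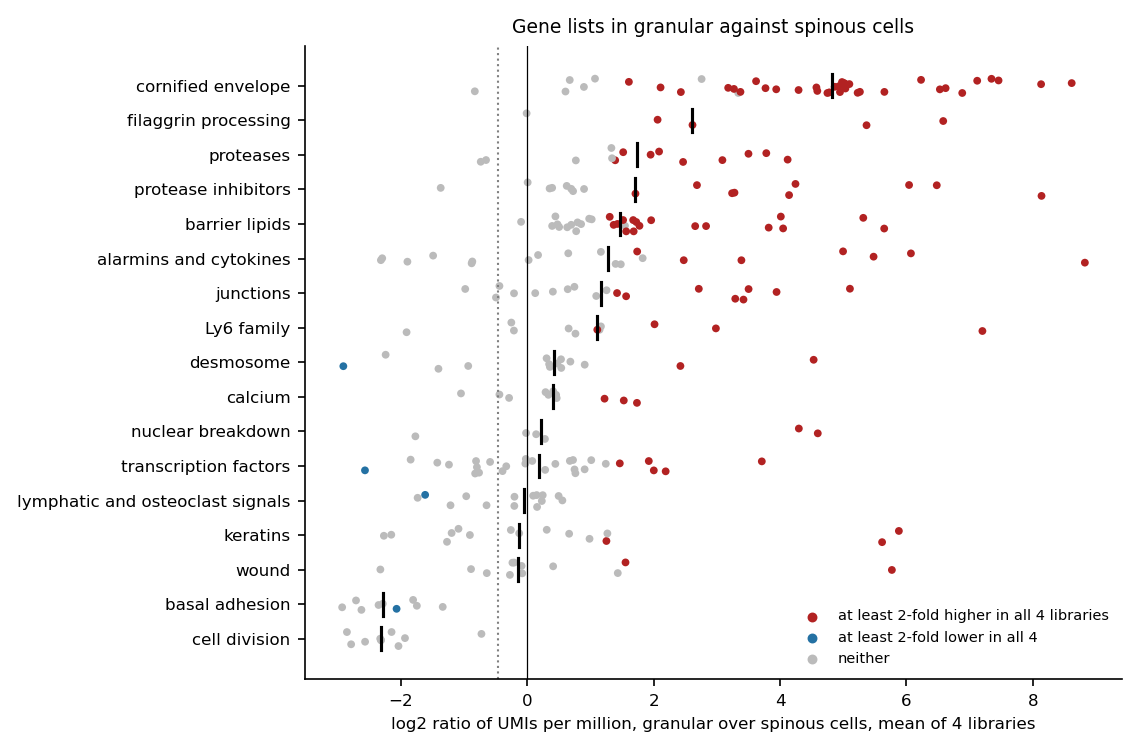
Mean log2 ratio of granular over spinous cells for each measured gene of each list, coloured by call, with the list median as a bar and the median of all genes dotted at -0.47. The envelope list lies highest (median 4.82), and cell division and basal adhesion lie lowest (-2.32 and -2.29).

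Past the lists, the 12 genes with the highest mean ratio among called genes with at least 500 UMIs were Il36a, Flg, Serpina12, Sprr2b, Gm48704, Gm57126, Nccrp1, 2310043M15Rik, Flg2, Lor, Saa1 and Ly6m. Nccrp1, a lectin-like F-box protein gene, stood at 185, 248, 255 and 164 CPM (7.91). For Il36a, Gm48704, Gm57126, 2310043M15Rik and Saa1, at least 1 library had 3 or fewer spinous UMIs, so no mean ratio is given. The 8 lowest were Sectm1a, Tmc7, Grik4, Msmp, Cyp2w1, Kif2c, Pls1 and Dapk2, from -3.57 to -3.24. Dapk2, a death-associated kinase, stood at 2.09, 2.53, 1.22 and 6.28 against 38.0, 38.2, 15.6 and 15.3.

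Granular cells were far from uniform. Without mixed barcodes, Krt10 took a median of 3.37%, 3.51%, 2.92% and 2.81% of a member's UMIs, with a 10th percentile of 0.991%, 1.17%, 1.38% and 1.17% and a 90th of 5.10%, 5.44%, 5.4% and 4.79%. Krt1 was spread much wider: its median was 0.104%, 0.0350%, 0.0110% and 0.0157% and its 90th percentile 3.06%, 3.07%, 2.38% and 1.94%, and it was at 0 in 8.37%, 22.3%, 33.9% and 33.8% of members. Flg had medians of 0.0415%, 0.0253%, 0.01% and 0.0181% and a 90th percentile of 2.00%, 1.76%, 0.828% and 1.08%. Flg was thus high in a minority of cells. The contrast of Krt1 with Krt10 is partly set by the rule, under which a member with little Krt1 must hold Krt10.

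Flg and Lor went together within cells. Members with at least 1% of their UMIs in Flg plus Lor, a limit set after the data were seen, numbered 265 (28.1%), 278 (23.9%), 63 (19.3%) and 85 (21.3%). Spearman's rho of Flg with Lor across cells was 0.79, 0.77, 0.73 and 0.80, and with Hrnr 0.75, 0.72, 0.63 and 0.72. With Krt10 it was -0.14, -0.19, 0.07 and 0.10. The cells of a library share its depth and each fraction shares the cell's total, so these are descriptions with no p.

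Cells rich in Flg and Lor had fewer genes at a similar depth. They held a median of 3720, 3668.5, 2729 and 2724 genes against 4562, 4497, 3237 and 3173 in other members, with median UMIs of 22706, 22056, 15860 and 15768 against 22071, 22581, 17914 and 17758. All 7 rule genes were present in 82.3%, 81.7%, 84.1% and 88.2% of them against 38.6%, 43.7%, 45.5% and 43.5%. The genes given next were not used in the choice of Flg and Lor. They were picked for differing the same way in all 4 libraries.

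Flg2 stood at 692, 589, 757 and 427 CPM in the Flg and Lor rich cells and at 2.96, 3.70, 4.76 and 1.46 in other members. Crct1, a small cysteine-rich envelope gene, stood at 2053, 2351, 3843 and 3359 against 27.3, 31.7, 70.9 and 63.3. Cdsn stood at 772, 1086, 1602 and 1651 against 29.8, 60.8, 110 and 124. The same division ran through the cytokines: Il36a stood at 587, 617, 361 and 477 against 8.30, 13.5, 7.44 and 8.41, and Il18 at 426, 447, 317 and 336 against 6.64, 5.55, 3.93 and 8.78. Dnase1l2, the nuclear DNase, stood at 231, 275, 202 and 205 against 7.87, 12.3, 8.27 and 11.9. In these genes the other members stood far below the level of the class as a whole.

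Genes lower in the Flg and Lor rich cells included the desmosomal cadherin Dsc3, at 35.5, 37.7, 46.9 and 36.4 CPM against 847, 772, 619 and 620 in other members. Gja1 stood at 22.2, 14, 18.4 and 16.6 against 312, 283, 251 and 204, and the water and glycerol channel Aqp3 at 62.2, 42.4, 63.2 and 37.2 against 1059, 806, 637 and 606. Mt4, a metallothionein of stratified epithelium, stood at 450, 452, 964 and 851 against 4016, 4324, 6766 and 6155. Tgm3 stood at 27.9, 23.1, 24.5 and 20.6 against 213, 203, 195 and 170. Krt10 differed far less, at 31749, 28512, 30994 and 30043 against 35351, 38090, 31177 and 28769.

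Beyond the keratin limit lay cells that the rule leaves out. Cells with 5 or more of the 7 genes but less than 0.5% Krt1 plus Krt10 numbered 155, 203, 25 and 36 without mixed barcodes. In them Lor stood at 58693, 61273, 47159 and 28363 CPM, Flg at 30679, 29667, 17376 and 12578, and Krt10 at 1362, 1430, 1895 and 1697. Their median gene number was 2580, 2381, 2346 and 2270, at median depths of 19378, 17919, 13706 and 10323.5 UMIs. They had fewer genes than the Flg and Lor rich members but were also shallower, so these gene numbers are not at equal depth. They had more Lor, Flg and Lce1a1 than the members as a whole, the last at 12714, 13571, 5376 and 2400.

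A second division followed Krt1. Members with at least 1% of UMIs in Krt1 numbered 316 (33.5%), 317 (27.2%), 71 (21.7%) and 94 (23.5%), and Krt1 stood at 26459, 28152, 24924 and 20600 CPM in them and at 1193, 1107, 1021 and 1101 in other members. Krt10 barely followed, at 35204, 35675, 31916 and 29769 against 33917, 35985, 30946 and 28778. Krt2 ran the other way, at 5467, 7175, 4645 and 6317 against 21732, 24456, 20312 and 18674. The 1% limit was set after the data were seen, and since Krt1 and Krt10 both entered the rule, the like levels of Krt10 are partly set by it.

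Other genes divided with Krt1. The actin-binding gene Tagln2 stood at 670, 643, 421 and 437 CPM in Krt1 rich cells against 177, 130, 108 and 117, and Smpdl3a, a phosphodiesterase gene, at 120, 121, 62.5 and 52.3 against 17.7, 12, 5.85 and 11. Sprr2b stood at 29.0, 19.0, 11.7 and 8.93 against 276, 328, 368 and 292, and Wfdc17, a secreted protein of the same fold as Wfdc21, at 573, 1278, 2081 and 2664 against 7582, 10904, 22650 and 17560. The Krt1 division cut across the first: Krt1 rich cells were 36.2%, 26.6%, 15.9% and 18.8% of the Flg and Lor rich cells and 32.4%, 27.4%, 23.1% and 24.8% of the others, with 96, 74, 10 and 16 cells in both.

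Another, smaller set was chosen by UMIs summed over Krt17, Krt79 and Defb6, genes met in the hair follicle and its upper duct. Members with 10 or more UMIs of Krt17, Krt79 and Defb6 numbered 111 (11.8%), 79 (6.78%), 23 (7.03%) and 40 (10%) and held 96.9%, 97.4%, 96.6% and 98.1% of those UMIs. Sprr1a stood at 1512, 1353, 914 and 1025 CPM in them against 93.6, 80.2, 33.9 and 32.1 in other members. Cst6 stood at 12114, 13851, 14400 and 13477 against 861, 727, 1359 and 1234, and Sox9, a transcription factor of the follicle, at 249, 277, 196 and 191 against 18.2, 17.2, 13.6 and 13.7. Krt2 stood at 2082, 3873, 4876 and 5311 against 17904, 20921, 17949 and 17058, and Krt10 at 19034, 18578, 16086 and 16573 against 36261, 36984, 32220 and 30506. The cystatin gene that did not separate granular from spinous cells thus separated granular cells from one another. Krt17 alone reached 10 UMIs in 97, 73, 18 and 33 members, Krt79 in 49, 28, 7 and 16, and Defb6 in 48, 23, 9 and 19. In Krt1 rich members Krt17 was higher and Krt79 lower than in other members in all 4 libraries. The set may therefore pool unlike cells.

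**Figure D4:**
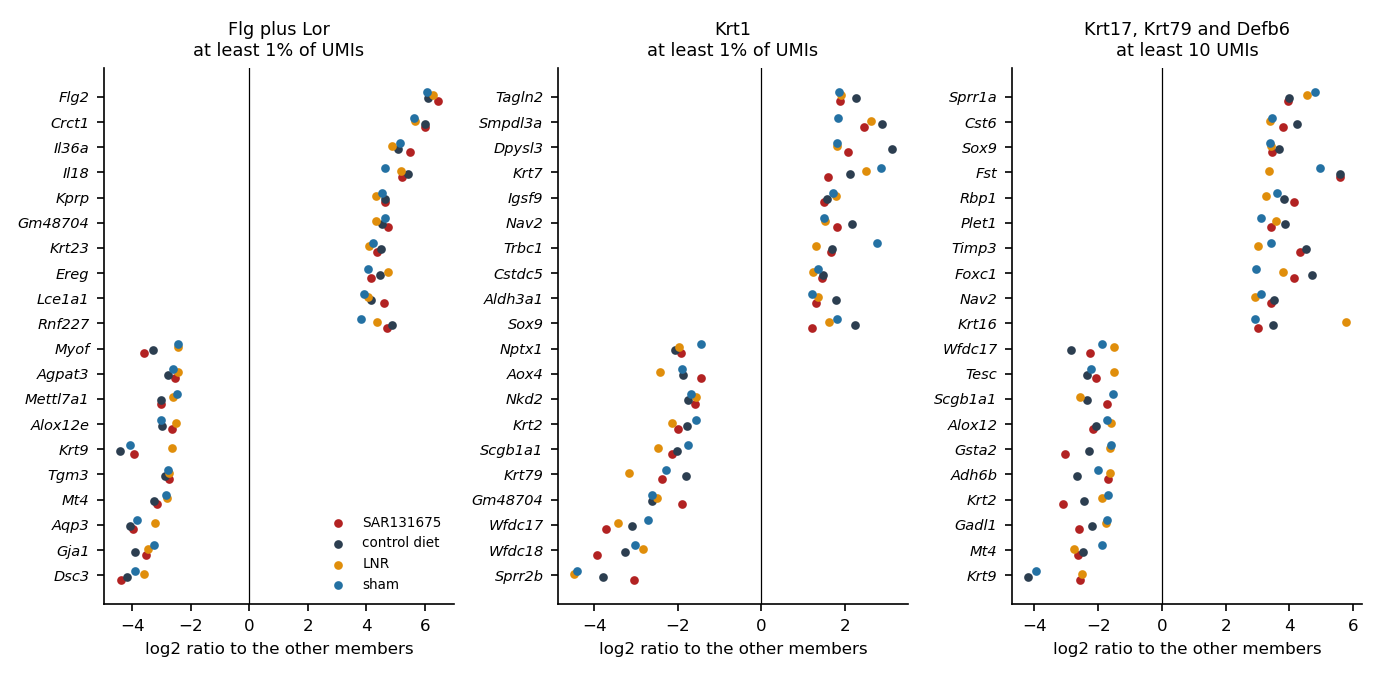
Log2 ratio of levels in granular cells with at least 1% Flg plus Lor (left), at least 1% Krt1 (middle) or 10 or more UMIs of Krt17, Krt79 and Defb6 (right) over the other members, for the 10 leading genes each way, 1 dot per library, mixed barcodes left out. The genes were picked for their size in all libraries, so the 4 dots of each lie on the same side of 0.

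SAR131675 was compared with control diet within granular cells to ask how blocking VEGFR3 bears on this layer. Among genes with at least 100 UMIs in the pair, 59 of 10245 (0.576%) were at least 2-fold higher with SAR131675 and 45 (0.439%) at least 2-fold lower. Without mixed barcodes these were 64 of 10070 (0.636%) and 36 (0.357%). Most of the genes that define the layer were near each other in the 2 libraries: the log2 ratio was 0.14 for Lor, 0.28 (counting interval 0.26 to 0.29) for Flg and -0.30 for Krt2. With 1 library each, a difference outside counting error is still not shown to exceed the spread between cells or between mice.

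Keratins of activated epidermis, which the hair follicle also carries, were among the genes that were higher with SAR131675. Krt6b stood at 27.3 CPM with SAR131675 and 1.56 with control diet (log2 ratio 4.11, interval 3.64 to 4.66), and Krt6a at 60.9 and 7.01 (3.11, 2.88 to 3.36); reads could be split between these near-identical copies. Their partner Krt16 stood at 99.7 and 20.5 (2.28, 2.14 to 2.43). Spink12, a Kazal-type protease inhibitor gene, stood at 199 and 12.3 (4.01, 3.84 to 4.19), and Krt42 at 11 and 0.260 (5.29). The alarmin subunit S100a8 stood at 37.5 and 5.71 (2.71), and the iron-binding Lcn2 at 7.01 and 1.47 (2.24).

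Much of these differences lay in few cells. Members with 10 or more UMIs of Spink12, Krt6a, Krt6b and Krt16 numbered 41 of 944 with SAR131675 (4.34%) and 20 of 1165 with control diet (1.72%), and they held 94.8% and 71.6% of those UMIs. A single SAR131675 cell held 2399 of the 3800 Spink12 UMIs, and a single cell held 198 of the 210 Krt42 UMIs. The 10 cells richest in S100a8 held 97.1% of its SAR131675 UMIs, and 1 control cell held 127 of the 132 there. For Krt16 and Krt6a the leading 10 cells held 67.2% and 80.1% of the UMIs with SAR131675, and a Krt6a UMI was found in 142 of 944 members (15.0%) against 57 of 1165 (4.89%). Thinned to 3000 UMIs, with mixed barcodes included, Krt6a was found in 3.92% and 2.48% of granular cells. The cells with 10 or more UMIs also carried Krt79 and Defb6, by which the set described above was chosen in part. In the 41 SAR131675 and 20 control cells Krt79 stood at 2137 and 1477 CPM against 181 and 118 in other members, and Defb6 at 1291 and 1510 against 123 and 43.5. Within the Krt17, Krt79 and Defb6 set, which was 11.8% of SAR131675 and 6.78% of control members, Krt6a stood at 418 and 55.3 against 16.5 and 4.00 outside it. How far the share of that set set these levels was not tested. The excess was not confined to granular cells. Without thinning, a Krt6a UMI was found in 13.3% of spinous cells with SAR131675 and 6.34% with control diet. The shares were 31.7% and 22.7% of basal-type cells and 5.21% and 2.31% of mesenchymal cells. For Krt16 they were 7.77% and 3.69% of spinous cells. After thinning, the Krt6a shares were 6.02% and 3.495% of spinous, 20.3% and 15.9% of basal-type and 1.66% and 0.532% of mesenchymal cells. Mesenchymal cells, taken above as the background for Slurp1, thus differed too. The part of background in the Krt6a and Krt16 shares was not tested. The concentration of Lcn2 was not examined.

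Late cornified envelope genes differed between the SAR131675 and control diet libraries in a direction that depended on the upper limits on genes and UMIs, and Lce1 copies share sequence. Of 42 envelope genes measured without mixed barcodes 14 were higher and 3 lower, and 12 of the 14 were Lce1 genes. Lce1a1 stood at 120 and 52.2 CPM (1.20) and Lce1c at 74.8 and 25.7 (1.54). Lce1m had 0.02. In cells that met the rule but were removed only by the upper limits, Lce1a1 stood at 114 with SAR131675 and 182 with control diet. With those cells put back, an alternative chosen after seeing the data, Lce1a1 stood at 116 and 141 (-0.28) and Lce1c at 59.3 and 91.6 (-0.63), so the direction turned. The 10 cells richest in Lce1a1 held 68% of its UMIs with SAR131675, 1 of them 425 UMIs, and 39.4% with control diet. Lor and Flg, present in 91.8% and 72.8% of SAR131675 members, did not share this concentration: for Flg the leading 10 cells held 13.6% and 12.2%.

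Some hard keratins of the nail and hair shaft were lower with SAR131675, whereas the list of 12 nail, follicle and gland genes, which holds none of them, had 3 of 7 measured genes higher and 0 lower (Spink12, Krt42 and Defb6; median 0.93) and summed to 709 and 268 CPM. The hard keratin Krt84 stood at 5.44 and 80.9 CPM (-3.89, -4.19 to -3.61), Krt36 at 24.0 and 123 (-2.36), and the keratin-associated Krtap3-1 at 0.209 and 8.26 (-5.14). Members with 10 or more UMIs of Krt36, Krt84, Krtap3-1 and Krtap3-3 numbered only 2, 15, 5 and 0, and 1 control cell held 593 of the 1871 Krt84 UMIs there. Col1a1 (10.3 and 74.4, -2.85) and Prg4, the lubricin gene of joints and tendon (29.0 and 199, -2.78), were also lower, and the lymphatic chemokine Ccl21a stood at 1.20 and 9.13 (-2.90). These are genes of other cell types, whose source in granular barcodes was not tested. With the cells removed by the upper limits put back, the log2 ratio was -1.24 for Krt84, -1.39 for Krt36 and -3.79 for Krtap3-1. Krtap3-1 had 4 SAR131675 UMIs without those cells and 15 with them. The ratio was 2.50 for Krt6b, 2.59 for Krt6a, 2.09 for Krt16 and 3.62 for Spink12. It was -1.11 for Col1a1, -1.02 for Prg4, 1.83 for Krt42 and 1.13 for Lcn2, while Ccl21a had -4.15, at 1.34 and 23.9, and S100a8 had 3.65.

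Lymph node removal was compared with sham in the same way. Over all members, 20 of 8784 genes (0.228%) were at least 2-fold higher with LNR and 1138 (13%) at least 2-fold lower, with a median over all genes of -0.19. Without mixed barcodes 19 of 6681 (0.284%) were higher, 49 (0.733%) were lower and the median was -0.03. The long lower list was thus mostly absent without mixed barcodes, though fewer genes then reached the minimum. Thinning to 3000 UMIs with mixed barcodes kept also left only 25 lower genes, and the cause was not tested. In all members Krt25, an inner root sheath keratin, stood at 0.152 and 106 CPM, Krt71 at 0.152 and 97.0, and the neutrophil gene Camp at 0 and 35.1. The comparisons that follow leave mixed barcodes out.

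Lor, Krt2 and Flg stood within 2-fold in LNR and sham. Lor had a log2 ratio of -0.01, Krt2 0.11 and Flg -0.46 (interval -0.50 to -0.43), at 2161 and 2981 CPM. Of 35 envelope genes 0 were higher and 1 lower, Sprr2a3, at 4.13 and 18.1 (-2.11), which with SAR131675 stood above its control at 27.6 and 9.43 (1.55; 0.65 with the cells removed by the upper limits put back). None of 26 barrier lipid, 11 protease, 15 inhibitor, 9 Ly6, 26 transcription factor and 16 junction genes measured was called. Over all genes only 0.284% were higher and 0.733% lower, so nothing is read from this absence. Of 14 keratins 3 were higher and 1 lower, and 1 of 11 desmosome genes was lower. Of 4 cell division genes 2 were lower, and 1 of 6 basal adhesion genes was lower. Il36a stood at 67.0 and 96.3 (-0.52, interval -0.71 to -0.34). Mki67 (-1.15), Top2a (-1.06) and Itga6 (-1.20) were lower with LNR in cells where they were scarce, and had -0.05, -0.37 and -0.04 with the cells removed by the upper limits put back. Lce1a1 had 0.68, at 110 and 68.3, and 2.18, at 174 and 38.4, with those cells put back. The other Lce1 genes moved with it: all 14 were then higher with LNR, from 1.39 for Lce1g to 2.99 for Lce1m, whereas Sprr2a3 had -1.40, so the count of 0 higher envelope genes holds only under the upper limits. Lce1 copies share sequence, so these are not 14 separate results. Among kept members the 10 cells richest in Lce1a1 held 60.3% of its UMIs with LNR and 61.7% in sham. Its concentration in the cells put back was not examined.

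The genes at the ends of the list again came from few cells or from other types. Krt36 stood at 114 CPM with LNR and 0.594 in sham (7.41), 502 of its 662 LNR UMIs in 1 cell, and Krt84 at 69.3 and 2.08 (5.01), so that these nail keratins were lower in the treated library of the first pair and higher in that of the second. Spink12 stood at 266 and 2.23 (6.85), with 1528 of 1546 UMIs in 1 cell. Krt6b stood at 48.6 and 1.34 (5.11) with 270 of 283 in 1 cell, and Krt6a at 62.4 and 11.3 (2.46) with 339 of 363. The cells removed by the upper limits held further Krt6a, 884 UMIs with LNR and 23 in sham, and with them put back the ratio was 3.93 for Krt6a and 6.61 for Krt6b. The haemoglobin gene Hbb-bs stood at 206 and 23.0 (3.15) and Hba-a1 at 80.3 and 12.2 (2.71), both with near-identical copies. In spinous cells, with mixed barcodes included, Hbb-bs stood at 200 and 258. The 4 haemoglobin genes summed to 372 and 48.1 in granular members without mixed barcodes and to 360 and 224 over all members. Lowest were Fgl2 at 1.20 and 17.4 (-3.76), the matrix inhibitor Mgp at 10.8 and 51.4 (-2.24) and Col1a1 at 8.25 and 31.3 (-1.91). With the cells removed by the upper limits put back, these had -2.78, -2.09 and -1.66, and Spink12 had 7.87.

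The 2 experiments share no library, so the same direction in both can be counted. Without mixed barcodes and at 1.5-fold, 10 of 6667 genes were higher in both treated libraries and 9 lower in both. Over all members 13 of 8453 were higher and 46 lower. At 1.5-fold over all members, 236 of 10245 genes were higher and 174 lower with SAR131675. With LNR, 175 of 8784 were higher and 2134 lower. The overlap was not set against what such counts would give by chance, so nothing is read from its size. Without mixed barcodes, higher were Krt6b, Spink12, Krt6a, Krt16, Lce1a1, Lce1e, Psors1c2, Btc, Saa1 and Far2, and lower were Col1a1, Col1a2, Prg4, Htra4, Clic5, Fgl2, Ddr2, Sparc and Postn. Btc, the growth factor betacellulin, stood at 59.5 and 25.3 CPM with SAR131675 and control diet (1.23) and at 15.8 and 7.13 with LNR and sham (1.14). Psors1c2, a gene beside Cdsn, stood at 8.68 and 4.33 (1.00) and at 18.2 and 2.97 (2.59). With the cells removed by the upper limits put back, the SAR131675 ratio was -0.53 for Psors1c2, -0.28 for Lce1a1 and -0.49 for Lce1e, so these did not keep their direction, and Saa1 (0.19) and Far2 (0.42) fell short of 1.5-fold. Krt6a, Krt6b, Krt16, Spink12 and Btc stayed above 1.5-fold in both. Under the upper limits, the richest LNR cell for each gene held 339 of 363 Krt6a, 270 of 283 Krt6b, 369 of 552 Krt16 and 1528 of 1546 Spink12 UMIs. Except for Btc, the LNR side of this agreement thus rested largely on single cells there. Btc UMIs also lay in few cells, 16 LNR and 8 sham members, of which 4 and 2 held 10 or more. The 10 cells richest in Btc held 93.5% of its UMIs with LNR, 81.8% with SAR131675 and 71.0% with control diet. A Btc UMI was found in 7.20% of SAR131675 and 6.52% of control diet members. The concentration in the cells put back was not examined. The lower set was made up largely of genes of mesenchymal cells, and the mesenchymal marker genes summed to 60.2, 145, 83.2 and 248 in these members.

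**Figure D5:**
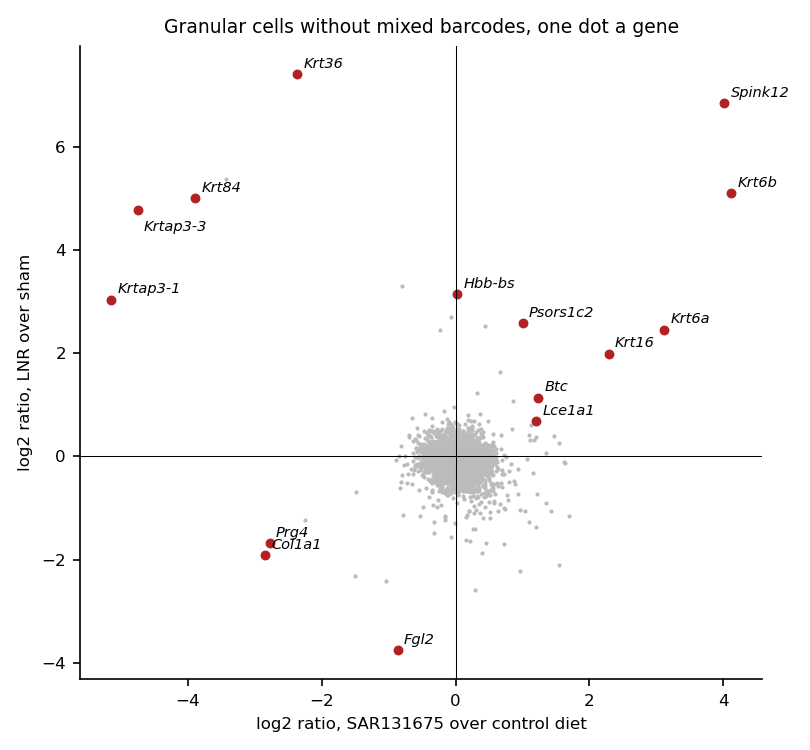
Log2 ratio of LNR over sham (vertical) against SAR131675 over control diet (horizontal) for genes in granular cells without mixed barcodes, with 15 genes named in red. Most genes lie near 0 on both axes, and Krt6a, Krt6b, Krt16 and Spink12 lie high on both. For each of these genes, a single LNR cell held most of the LNR UMIs.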

How the data were processed

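The deposited matrices hold UMI counts for 33696 genes, made by the authors with Cell Ranger on GRCm39 (version 6.1.2 in the file headers of LNR and sham and 8.0.1 in those of SAR131675 and control diet) from a 3′ droplet kit. The deposited counts were used as they stand. Barcodes with 200 to 5500 genes, at most 30000 UMIs and at most 10% mitochondrial UMIs were kept. UMIs were summed per cell class and library and scaled to 1000000 (CPM). Basal-type cells had at least 0.5% Krt5 plus Krt14 and too little Krt1 plus Krt10, and mesenchymal cells had at least 0.5% collagen UMIs and too little keratin. Poisson, Clopper-Pearson and conditional ratio intervals (95%) cover counting error only. With 1 library per group no test was run. No doublet caller was run; mixed barcodes were left out as an alternative. The members and lists were chosen with earlier results of these data known.

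Genes named were the rule genes, up to 4 most abundant and the highest and lowest of each list, the 12 highest and 8 lowest called genes with at least 500 UMIs, the 10 highest and lowest of each treatment pair, genes past 1.5-fold in both, and the lymphatic and bone signals. Examples within the divided members, and some further list members, were chosen after their values were seen. Python 3.11.15, numpy 2.4.6, scipy 1.17.1, pandas 2.3.3 and matplotlib 3.10.9 were used, and the ratio and interval code was tested on simulated data.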

Additional observations from a re-analysis of the deposited data

How the results depend on the processing

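No paired analysis was possible because each group has 1 library. The log2 ratio of granular shares stayed below 0 under every alternative run. For SAR131675 over control diet it was -0.84 when keratinocytes with 2 or more other-type genes were left out. For LNR over sham it was -0.81 with at least 1% Krt1 plus Krt10, -0.24 (interval -0.50 to 0.01) without keratinocytes with 2 or more other-type genes, -0.25 at 5 or more, -0.47 thinned to 3000 UMIs and -0.26 thinned without mixed barcodes. Genes lower in granular than spinous cells numbered 727 with 1% keratin, 2555 and 2508 without cells with 2 or 5 other-type genes, 1310 thinned, 1880 thinned without mixed barcodes, 186 with median-of-ratios scaling and 1902 at 1.5-fold. Leaving out 1 library gave 369 to 3100 lower genes, the largest without sham, and 796 to 943 higher. Genes higher numbered 1879 with no minimum beyond 1 UMI and 1256 at 1.5-fold.

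For SAR131675 over control diet, higher genes numbered 134 without upper limits, 7 thinned, 5 thinned without mixed barcodes, 2441 with no minimum and 236 at 1.5-fold, and lower genes 25 without cells with 2 other-type genes, then 20, 17, 2521 and 174 in the last 4 settings. For LNR over sham, higher genes numbered 11 without cells with 2 other-type genes, 7 thinned, 8 thinned without mixed barcodes, 51 with median-of-ratios scaling, 845 with no minimum and 175 at 1.5-fold. Lower genes there numbered 734 with 1% keratin, 11 and 49 without cells with 2 or 5 other-type genes, 25 thinned, 5 thinned without mixed barcodes, 4909 with no minimum and 2134 at 1.5-fold. Thinning leaves fewer UMIs, so fewer genes reach the minimum; the cause of the other shifts was not tested. The 5-gene limit and the thinned fit without mixed barcodes were chosen after seeing the data.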

Other observations

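The upper limits on genes and UMIs, which the study states for its LNR data, removed more granular cells in the diet pair than in the LNR and sham pair. Barcodes that met the gene and keratin rule without mixed signs but exceeded an upper limit numbered 897, 990, 102 and 123, against 944, 1165, 327 and 400 kept. Their median depths were 42008, 41377.5, 40686 and 43557 UMIs. In them Lor stood at 3054, 3103, 1835 and 1437 CPM, below the level in the members. With no upper limits and mixed barcodes included, the log2 ratio of granular shares was -0.50 for SAR131675 over control diet and -0.87 for LNR over sham. This ratio was not computed with mixed barcodes left out.

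Krt9, the keratin of thick footpad skin, stood at 100, 107, 19.6 and 40.5 CPM in all granular members. Members without mixed barcodes and with 10 or more Krt9 UMIs numbered 8, 11, 2 and 2, so its level in a library rested on a few cells.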
